A study of Mus musculus with 12 samples.

Results

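The genes described here encode the receptors that detect misplaced or foreign nucleic acids, the adaptor that relays their signal, and the enzymes that keep a cell's own RNA and DNA from setting them off. They were taken by symbol from the deposited gene table, with 1 entry per gene ID, and number 10 of 40481 genes. The sensors are Ddx58 (RIG-I), Ifih1 (MDA5), Dhx58 (LGP2), Tlr3, Zbp1 and Eif2ak2 (PKR). The adaptor is Mavs, and the brakes are Adar, Samhd1 and Trex1. Of these, 9 reached 1 CPM (reads of the gene scaled to a common library total, as deposited) in at least 3 of 12 libraries and were among the 14271 genes tested. Trex1 did not.

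RNA was sequenced from mouse hematopoietic stem cells (HSCs) that were wild type (WT) or carried iE/R, an inducible ETV6-RUNX1 fusion. ETV6-RUNX1 joins a pair of transcription factor genes and is known from childhood B-cell leukemia. The sorted cells were fetal (liver, E14.5) or adult (bone marrow, 8 weeks of age). All 4 groups, of 3 libraries each, then grew ex vivo for 3 days under conditions that expand HSCs. Doxycycline at 1 µg/mL was present throughout, so the WT cells received the inducing drug too. The promoter that drives the fusion, the number and sex of animals behind each library, and whether libraries came from separate cultures are not given in the sources used here. The p-values therefore measure the spread between these libraries, which may be partly technical.

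RIG-I and MDA5 are cytoplasmic helicases that bind viral or misprocessed double-stranded RNA and signal through MAVS on the mitochondrial surface to switch on interferon genes. LGP2 is a related helicase without the signalling domains, and it tunes the other two. TLR3 reads double-stranded RNA in endosomes, ZBP1 binds left-handed Z-form nucleic acids and can start necroptosis, and PKR halts translation by phosphorylating eIF2alpha. ADAR edits adenosine to inosine in double-stranded RNA so that MDA5, PKR and ZBP1 do not read it, SAMHD1 breaks down deoxynucleotides, and TREX1 digests stray DNA. Many of these genes are themselves induced by interferon, through transcription factors that bind a promoter element called the ISRE.

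The promoters are shown first, and their part in the changes was not tested. RefSeq start-site windows of GRCm38.p6, from 250 bases before to 50 after each start, were at hand for 8 of the 10 genes (11 windows). Dhx58 and Zbp1 had none. Each stretch below is written 5′ to 3′ on the gene's own strand. Capitals in Ddx58, Eif2ak2 and Ifih1 mark a match to the ISRE letters GAAANNGAAA on either strand. In Adar and Tlr3 they mark the shorter IRF half-site AANNGAAA, and in Samhd1 the RUNX letters TGTGGT. The Mavs stretch, just upstream of its start, is from a window without a match to any of the letters searched. The 2 windows of Trex1 had no match either, and Samhd1 matched neither the ISRE letters nor the half-site.
Ddx58, chr4:40239804-40239833, minus strand: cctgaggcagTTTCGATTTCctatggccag
Eif2ak2, chr17:78882535-78882564, minus strand: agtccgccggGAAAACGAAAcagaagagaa
Ifih1, chr2:62646206-62646235, minus strand: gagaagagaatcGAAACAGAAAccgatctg
Adar, chr3:89730736-89730765, plus strand: ccttttcaaggAAACGAAAgtgaactctgg
Tlr3, chr8:45410421-45410450, minus strand: aagtgaatggcTTTCACTTtgtttagacac
Samhd1, chr2:157135147-157135176, minus strand: tcacttttggggTGTGGTgtcagtgcggct
Mavs, chr2:131234033-131234062, plus strand: atagctgcgtggctggcttcgtcccgcccc

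The ISRE letters occurred in 3 of the 8 genes with a window, against 3.99% of all 27025 genes with windows. The half-site, which overlaps the ISRE by construction, occurred in 5 of the 8 (Adar, Ddx58, Eif2ak2, Ifih1 and Tlr3) against 26.7% of all genes. In Adar it fell in 1 of 3 annotated start windows. A further interferon-responsive element, GAS, searched as TTCNNNGAA, occurred in Adar, Eif2ak2 and Samhd1, against 9.55% of all genes. The RUNX letters, which the RUNX1 portion of the fusion is known to bind, occurred in Adar and Samhd1, against 18.9% of all genes. All matches are of letters only, on both strands, and binding was not measured.

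Library totals ranged from 32.3 to 64.5 M reads, so that 3 reads, the floor used for a value near 0, equalled 0.0465 to 0.0928 CPM (counting error only). The HSC markers (10 genes) were present in all libraries. They summed to 1781 to 2182 CPM in WT and 3140 to 3714 CPM in ETV6-RUNX1 fetal liver. In bone marrow they summed to 1813 to 2865.5 CPM in WT and 2509 to 3083 CPM with the fusion. With ETV6-RUNX1, 7 of the 10 were higher in fetal liver and 5 in bone marrow (limma adjusted p under 0.05), and none was lower. Over all genes tested, 24.8% and 14.4% were higher. Markers of T and NK cells (6 genes, Cd3e without a read in any library) summed to 0.805 to 4.32 CPM. Those of B cells (4 genes) summed to 0.324 to 1.04 CPM and those of hepatoblasts (4 genes) to 15.1 to 36.8 CPM. Afp alone gave 13.0 to 36.5 CPM of the hepatoblast sum, while Alb and Ttr reached at most 0.360 and 0.0747 CPM. C1qa of macrophages reached at most 0.0309 CPM. Adgre1 of macrophages was at 0 to 0.0649 CPM in WT and 0.592 to 1.56 CPM in ETV6-RUNX1 fetal liver. In bone marrow it was at 0 to 0.190 CPM in WT and 0.108 to 1.30 CPM with the fusion. Mrc1 overlapped between the genotypes in both sources. The summed level of 7 macrophage markers, 4 of them under 1 CPM in every library, was 35.5 to 55.8 CPM in WT and 83.7 to 113 CPM in ETV6-RUNX1 libraries, of which Cd68 alone gave 33.9 to 54.9 and 80.3 to 109 CPM. Markers of conventional dendritic cells (5 genes) summed to 16.1 to 18.1 CPM in ETV6-RUNX1 fetal liver and 2.32 to 7.26 CPM elsewhere, and those of plasmacytoid dendritic cells (4 genes) to at most 1.20 CPM. Endothelial and stromal markers (6 genes) summed to 17.4 to 19.2 CPM in ETV6-RUNX1 fetal liver and 1.43 to 8.87 CPM elsewhere. Cdh5 alone gave 15.4 to 15.6 CPM in ETV6-RUNX1 fetal liver. Col1a1 and Col3a1 reached at most 0.450 and 0.210 CPM there, and Cxcl12 was at 0.714 to 2.17 CPM. Whether such cells were present, and their part in the results, was not tested. Neutrophil transcripts were found in WT bone marrow replicates 1 and 2, where S100a8 was at 49.4 and 12.0 CPM against 0.125 CPM in replicate 3. Their summed level over 5 genes ranged from 2.77 to 114 CPM in WT bone marrow and from 1.14 to 19.8 CPM in the other groups. In WT fetal liver Ltf alone gave 16.95 to 19.8 CPM of it, while S100a8, S100a9, Ngp and Camp reached at most 0.0649 CPM. The calls of sensors and brakes that rest on WT bone marrow are also given without its replicates 1 and 2. Xist is the RNA of the inactive X chromosome. It was at 51.7 to 89.3 CPM in the fetal liver libraries and 0.175 to 1.27 CPM in the bone marrow libraries. Tissue source, age and sex composition therefore cannot be told apart. In bulk RNA, more cells of a type and more RNA per cell cannot be told apart either.

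With ETV6-RUNX1, 8 of the 9 measured genes rose in fetal liver and the same 8 rose in bone marrow (limma adjusted p under 0.05). Over all genes tested, 43.1% passed in fetal liver (24.8% higher and 18.3% lower) and 19.4% in bone marrow (14.4% higher and 4.93% lower). Each of the 8 was also higher in every library with the fusion than in every WT library of its source, as were 32.3% of all genes in fetal liver and 23.6% in bone marrow. The balance over all genes depended on the scaling. Of the genes that passed in bone marrow, 74.5% were higher, but 53.0% with median-of-ratios scaling, 48.5% with quantile normalization and 50.5% with edgeR. In fetal liver it was 57.6%, and 42.0% with quantile normalization. The 8 rises passed in both sources under each of these. Without WT bone marrow replicates 1 and 2, 4 of the 8 rises in bone marrow passed (Ddx58, Dhx58, Ifih1 and Zbp1). Those of Eif2ak2 (0.74, limma adjusted p = 0.141), Adar (0.73, adjusted p = 0.139), Tlr3 (0.95, adjusted p = 0.174) and Samhd1 (0.90, adjusted p = 0.0587) did not. The median log2 fold change of the 9 genes was 2.57 in fetal liver, where the median of all genes was 0.08, and 1.10 in bone marrow, where it was 0.13. Mavs passed in neither. The medians of all genes moved to 0.01 in both sources with median-of-ratios scaling and to -0.10 and -0.04 with quantile normalization. Fold changes are on the log2(CPM + 1) scale throughout, which understates the change of genes with low levels.

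**Figure D1:**
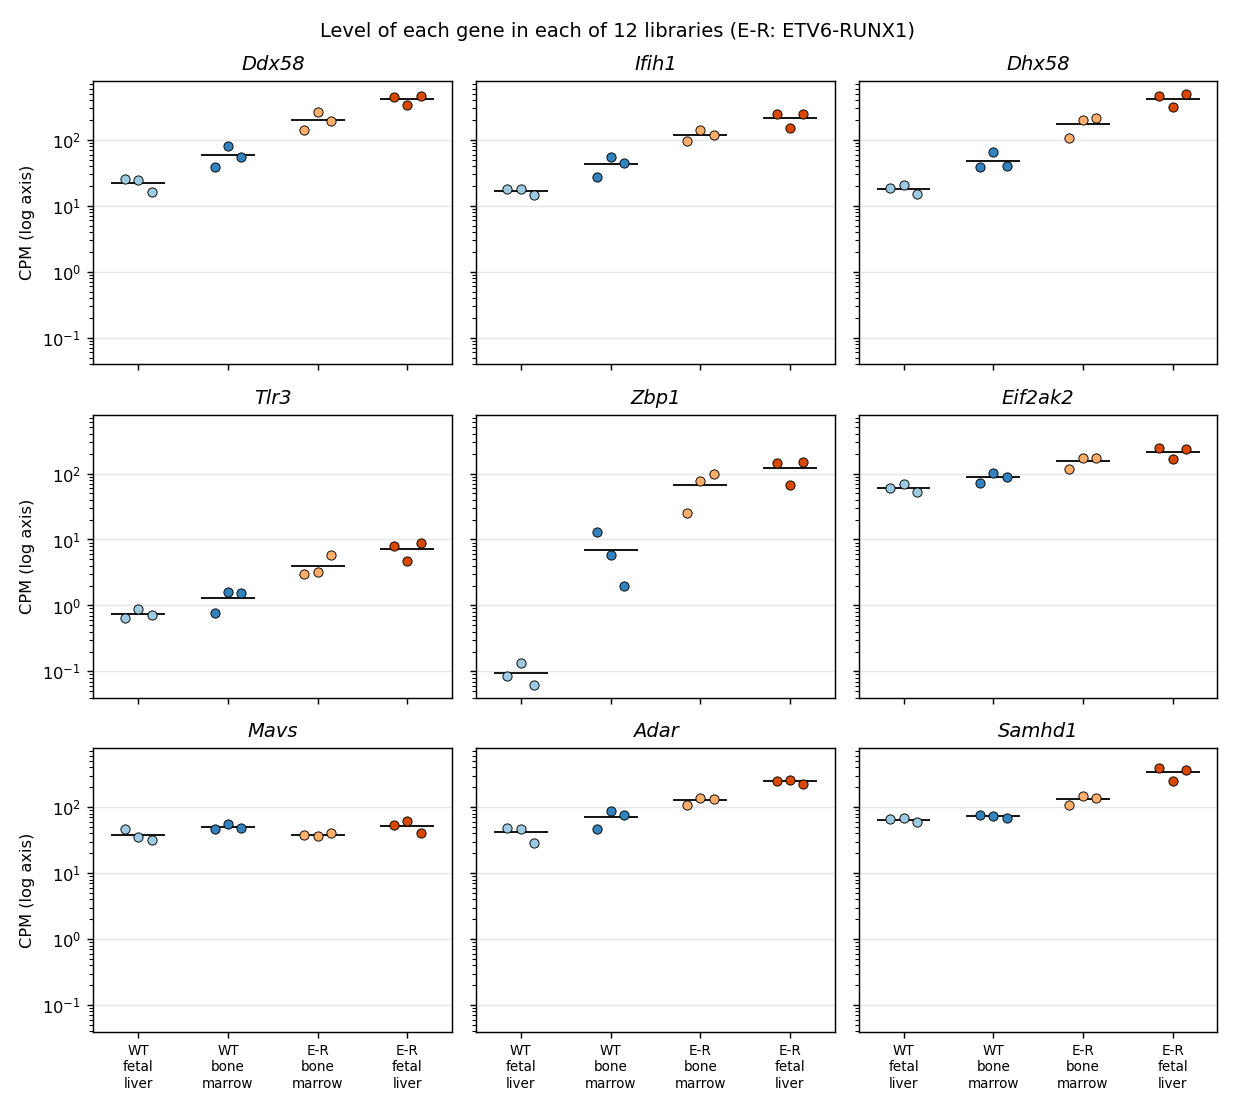
CPM (log axis) of the 9 measured genes in each of the 12 libraries, by group, with E-R for ETV6-RUNX1. Points are libraries and lines are group means. Every gene but Mavs climbs from WT fetal liver through WT bone marrow and ETV6-RUNX1 bone marrow to ETV6-RUNX1 fetal liver, with Zbp1 under 0.14 CPM at the start of that order.

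Ddx58 (chromosome 4, 40203773 to 40239828), the RIG-I gene, was at 25.4, 24.5 and 16.3 CPM in the WT fetal liver libraries and at 452, 337 and 458 CPM with the fusion. In WT bone marrow it was at 38.3, 81.1 and 55.8 CPM, and with the fusion at 143, 268 and 194 CPM. None of the 4 groups overlapped another, and the fetal liver cells held both the lowest and the highest levels. In fetal liver the log2 fold change was 4.18, with an SE of 0.27 (limma adjusted p = 4.44e-08), and in bone marrow it was 1.79 ± 0.27 (adjusted p = 0.000827).

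Ifih1 (chromosome 2, 62595798 to 62646255), which encodes MDA5, was at 18.2, 18.1 and 14.6 CPM in WT and 243, 150 and 251 CPM in ETV6-RUNX1 fetal liver. Its bone marrow values were 27.7, 55.3 and 44.5 CPM in WT and 96.3, 143 and 117 CPM in ETV6-RUNX1 cells. Here too the 4 groups were separate, although replicate 2 of ETV6-RUNX1 fetal liver, at 150 CPM, came close to the highest bone marrow library at 143 CPM. The changes were 3.55 ± 0.25 in fetal liver (limma adjusted p = 8.38e-08) and 1.50 ± 0.25 in bone marrow (adjusted p = 0.00143).

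Dhx58 (chromosome 11, 100694884 to 100704271), the gene of the regulator LGP2, was at 18.5, 20.6 and 15.1 CPM in WT fetal liver and 455, 311 and 497 CPM in its ETV6-RUNX1 counterpart. The bone marrow libraries held 38.9, 66.4 and 39.9 CPM without the fusion and 108, 199 and 218 CPM with it. Its groups did not overlap. The rise of 4.45 ± 0.27 in fetal liver (limma adjusted p = 2.48e-08) ranked 71 of 14271 genes by size, and in bone marrow it was 1.81 ± 0.27 (adjusted p = 0.000762).

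Tlr3 (chromosome 8, 45395665 to 45411080), the endosomal receptor, had the lowest level per kilobase of exon of the measured genes in ETV6-RUNX1 fetal liver. Its level was 0.649, 0.870 and 0.713 CPM in WT fetal liver and 8.05, 4.65 and 9.0 CPM in ETV6-RUNX1 fetal liver. Bone marrow gave 0.781, 1.62 and 1.52 CPM in WT and 3.03, 3.18 and 5.82 CPM in ETV6-RUNX1 libraries. The genotypes were separate in each source, while the WT sources overlapped, as did the ETV6-RUNX1 sources. It reached 1 CPM, the filter on low levels, in all 6 ETV6-RUNX1 libraries and in 2 of WT bone marrow. The rises were 2.20 ± 0.26 (limma adjusted p = 1.76e-05) and 1.10 ± 0.26 (adjusted p = 0.0113). The call in bone marrow was lost when all genes with reads were tested, without the filter.

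Zbp1 (chromosome 2, 173206612 to 173218923), the Z-nucleic acid sensor, was close to silent in WT fetal liver, at 0.0865, 0.134 and 0.0620 CPM, which were 4, 8 and 4 reads. In ETV6-RUNX1 fetal liver it stood at 145, 66.9 and 148 CPM. The fold change of 6.70 ± 0.52 (limma adjusted p = 2.62e-07) ranked 12 of 14271 by size, and edgeR on the recovered reads, without the added 1, put it at 10.19. WT bone marrow held 12.8, 5.76 and 1.94 CPM and ETV6-RUNX1 bone marrow 25.2, 77.1 and 98.2 CPM, a rise of 3.18 ± 0.52 (limma adjusted p = 0.00143). The order of the WT bone marrow replicates was that of S100a8 given above, and of Ngp and S100a9. It was not that of Ltf (3.83, 25.7 and 2.47 CPM) or Camp (0.343, 5.92 and 0.174 CPM), which were highest in replicate 2. The part of neutrophil RNA in the Zbp1 values was not tested. Without WT bone marrow replicates 1 and 2 the rise was larger, at 4.32 (adjusted p = 0.00252).

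Eif2ak2 (chromosome 17, 78852564 to 78882573), which encodes PKR, had the highest level per kilobase of exon in WT fetal liver. It was at 61.2, 69.2 and 51.6 CPM in WT and 246, 167 and 234 CPM in ETV6-RUNX1 fetal liver, a rise of 1.80 ± 0.20 (limma adjusted p = 7.78e-06). In bone marrow it went from 72.7, 100.1 and 89.9 CPM to 115, 171 and 174 CPM, a rise of 0.79 ± 0.20 (adjusted p = 0.0136). The genotypes did not overlap in either source. The bone marrow call was lost without ETV6-RUNX1 bone marrow replicate 2, where the change was 0.70 (adjusted p = 0.0610).

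The other kinases that phosphorylate eIF2alpha respond to heme shortage (Eif2ak1), unfolded proteins in the endoplasmic reticulum (Eif2ak3) and amino acid shortage (Eif2ak4). None of the 3 passed the test in any of the 5 comparisons. Eif2ak1 averaged 41.0 CPM in WT and 55.0 CPM in ETV6-RUNX1 fetal liver (0.42 ± 0.23, limma adjusted p = 0.165). That change passed without WT bone marrow replicate 1 or without replicates 1 and 2, with only the 6 fetal liver libraries and with array weights. Eif2ak3 averaged 6.88 and 7.25 CPM (0.05 ± 0.21), and Eif2ak4 18.8 and 21.0 CPM (0.13 ± 0.20). Their bone marrow changes were 0.37 ± 0.23, 0.11 ± 0.21 and 0.14 ± 0.20. With the share of processed pseudogenes as a covariate, Eif2ak1 passed there at 0.72 (limma adjusted p = 0.0310).

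Mavs (chromosome 2, 131234063 to 131248025), the adaptor on which RIG-I and MDA5 converge, was at 46.2, 34.7 and 32.3 CPM in WT fetal liver and 53.9, 60.8 and 40.1 CPM in ETV6-RUNX1 fetal liver. These groups overlapped, and the change of 0.44 did not pass (95% interval 0.06 to 0.81, limma adjusted p = 0.0565). It passed with array weights and when WT fetal liver replicate 1 or ETV6-RUNX1 fetal liver replicate 3 was left out. WT bone marrow held 46.9, 56.4 and 47.9 CPM and ETV6-RUNX1 bone marrow 37.9, 36.7 and 40.0 CPM, so that every library with the fusion was lower. That change was -0.39 (95% interval -0.76 to -0.01, limma adjusted p = 0.133), while edgeR gave -0.55 (adjusted p = 0.0387). The fall passed with DESeq2, median-of-ratios scaling and quantile normalization too. No scaling turned the direction in either source.

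Adar (chromosome 3, 89715022 to 89753446) was at 49.1, 46.5 and 28.3 CPM in WT fetal liver and 250.4, 262 and 223 CPM in ETV6-RUNX1 fetal liver, a rise of 2.57 ± 0.23 (limma adjusted p = 1.30e-06). Bone marrow held 46.0, 88.9 and 75.5 CPM in WT and 108, 138 and 134 CPM in ETV6-RUNX1 cells, a rise of 0.89 ± 0.23 (adjusted p = 0.0181). No ETV6-RUNX1 library fell to the level of a WT library. The bone marrow call was lost without WT bone marrow replicate 1 (0.61, adjusted p = 0.0576) or ETV6-RUNX1 bone marrow replicate 2 (0.82, adjusted p = 0.0693). It was also lost when all genes with reads were tested. The interferon-inducible long protein of Adar and its constitutive short protein are not separated by a value per gene. In addition, 16.8% of the exonic bases of Adar lie opposite exons of Chrnb2 on the other strand, and the use of strand in counting is not given in the sources used here.

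Samhd1 (chromosome 2, 157097533 to 157135265), the deoxynucleotide hydrolase, overlapped between the WT sources, with 65.1, 69.5 and 59.8 CPM in fetal liver and 76.0, 74.7 and 69.3 CPM in bone marrow. ETV6-RUNX1 cells held 398, 253 and 361 CPM in fetal liver and 109, 147 and 138 CPM in bone marrow. Both groups with the fusion lay above all WT libraries, and fetal liver above bone marrow. The changes were 2.34 ± 0.17 (limma adjusted p = 1.01e-07) and 0.82 ± 0.17 (adjusted p = 0.00481).

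Trex1 (chromosome 9, 109057933 to 109059734, minus strand), the DNA exonuclease, was listed at 0 in all 12 libraries. Every one of its 1147 exonic bases in GENCODE M21 also lies in same-strand exons of Atrip, a DNA damage checkpoint gene, whose mean was 26.2 to 42.1 CPM over the 4 groups. Protein-coding genes covered in this way number 47 in the table, and all 47 were at 0 in every library, against 12.4% of the other protein-coding genes. No level of Trex1 is read from this 0.

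The rise was larger in fetal liver than in bone marrow for 7 of the 9 genes by the test of the difference itself, against 9.19% of all genes tested (5.56% in that direction). The differences between the 2 log2 fold changes were 3.53 ± 0.74 for Zbp1 (limma adjusted p = 0.00934), 2.64 ± 0.38 for Dhx58 (adjusted p = 0.000763), 2.40 ± 0.38 for Ddx58 (adjusted p = 0.00157) and 2.05 ± 0.35 for Ifih1 (adjusted p = 0.00250). The brakes followed, with 1.69 ± 0.33 for Adar (adjusted p = 0.00613) and 1.52 ± 0.24 for Samhd1 (adjusted p = 0.00124), then Eif2ak2 at 1.01 ± 0.28 (adjusted p = 0.0365). Tlr3 at 1.10 ± 0.37 (adjusted p = 0.0771) and Mavs at 0.82 ± 0.25 (adjusted p = 0.0514) did not pass. Over all genes, 60.6% of the differences that passed were higher in fetal liver, and 73.8% with median-of-ratios scaling.

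These differences varied in how they held. Eif2ak2 lost its call under 11 of 23 alternatives, among them leaving out any single one of WT fetal liver replicate 1 or 3, WT bone marrow replicate 2 or 3, ETV6-RUNX1 bone marrow replicate 1, or ETV6-RUNX1 fetal liver replicate 1 or 3. Tlr3 gained one without WT bone marrow replicate 1, ETV6-RUNX1 bone marrow replicate 3 or ETV6-RUNX1 fetal liver replicate 2, and also with array weights and DESeq2. Mavs gained one under 9 of 23 alternatives: edgeR, DESeq2, both scalings, array weights, the filter on a mean of 5 CPM, and without WT fetal liver replicate 1, WT bone marrow replicate 1 or ETV6-RUNX1 fetal liver replicate 3. Without WT bone marrow replicates 1 and 2, 5 of the 7 differences passed. Zbp1 (2.39, limma adjusted p = 0.0734) and Eif2ak2 (1.06, adjusted p = 0.0785) did not, and Zbp1 also lost its call when all genes with reads were tested (adjusted p = 0.0615). The share of reads in processed pseudogenes differed between the ETV6-RUNX1 groups, at 2.29% to 2.74% in bone marrow and 1.33% to 2.06% in fetal liver. With that share as a covariate, 3 of the 9 differences passed (Dhx58, Samhd1 and Zbp1), and those of Ddx58 and Ifih1 were 1.77 (limma adjusted p = 0.0567) and 1.71 (adjusted p = 0.0611). Adar, which lost its call under that alternative alone, fell to 0.85 (adjusted p = 0.154). Dhx58 and Samhd1 passed under all 23 alternatives.

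**Figure D2:**
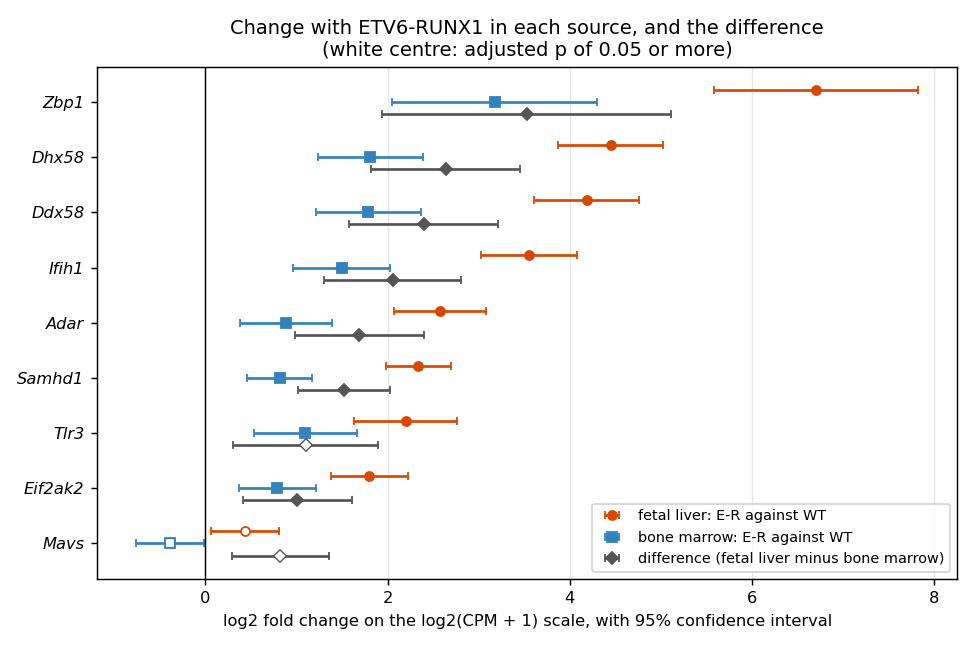
Log2 fold change with its 95% confidence interval for each of the 9 genes: ETV6-RUNX1 against WT in fetal liver (circles) and bone marrow (squares), and the difference between them (diamonds). White centres did not pass. Every gene but Mavs lies above 0 in both sources, and for every gene the fetal liver value is the higher one.

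Between sources, the estimates of all 9 genes were below 0 in WT cells (fetal liver against bone marrow) and above 0 in ETV6-RUNX1 cells. The medians of all genes were -0.07 and -0.16. With the pseudogene covariate Mavs was below 0 in ETV6-RUNX1 cells too (-0.034). Among WT libraries, 4 of the 9 genes were lower in fetal liver than in bone marrow, against 11.1% of all genes (7.77% lower), and none of the 9 was higher with a call. They were Zbp1 (-2.57 ± 0.52), Dhx58 (-1.34 ± 0.27), Ddx58 (-1.32 ± 0.27) and Ifih1 (-1.23 ± 0.25), with limma adjusted p from 0.00476 to 0.00509. Without WT bone marrow replicates 1 and 2 only 2 of these calls were left, those of Ddx58 and Ifih1. Among ETV6-RUNX1 libraries, 5 of the 9 genes were higher in fetal liver, against 28.6% of all genes (10.4% higher). Of all genes called between the WT sources 30.3% were higher in fetal liver, and 40.7% with median-of-ratios scaling. Between the ETV6-RUNX1 sources it was 36.3%, and 57.7% with that scaling. The 5 sensors and brakes were Samhd1 (1.34 ± 0.17), Dhx58 (1.30 ± 0.27), Ddx58 (1.07 ± 0.27), Adar (0.95 ± 0.23) and Ifih1 (0.83 ± 0.25), with limma adjusted p from 4.04e-05 to 0.0219. With the pseudogene covariate 2 of the 5 passed (Dhx58 and Samhd1), and with median-of-ratios scaling 8 of the 9 genes did. The Ifih1 call was lost without ETV6-RUNX1 bone marrow replicate 1 or ETV6-RUNX1 fetal liver replicate 1 or 3.

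Ranked by group mean, 8 of the 9 genes followed 1 order, WT fetal liver, WT bone marrow, ETV6-RUNX1 bone marrow, ETV6-RUNX1 fetal liver, as did 11.4% of all genes tested. In Ddx58, Dhx58 and Ifih1 no neighbouring groups overlapped along that order, which held for 0.967% of all genes. The WT sources overlapped in Adar, Samhd1 and Tlr3, and the ETV6-RUNX1 sources in Eif2ak2, Tlr3 and Zbp1. Within groups the genes varied by library: replicate 3 of WT fetal liver was the lowest for 8 of the 9 genes, replicate 1 of WT bone marrow for 7, replicate 1 of ETV6-RUNX1 bone marrow for 8 and replicate 2 of ETV6-RUNX1 fetal liver for 7.

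Per kilobase of exon, the genes changed places. Length was that of all annotated exons of a gene together, which can differ from that of the transcripts expressed. Places between genes therefore depend on the annotation. In WT fetal liver the highest mean levels were those of Eif2ak2 (11.9 ± 1.72 CPM per kb, SD, n = 3) and Mavs (11.3 ± 2.23), which did not differ beyond their spread. Samhd1 (7.08 ± 0.53), Dhx58 (5.53 ± 0.86) and Adar (5.09 ± 1.39) came next, then Ddx58 (3.13 ± 0.71) and Ifih1 (2.08 ± 0.25). Tlr3 was at 0.143 ± 0.022 and Zbp1 at 0.027 ± 0.010 CPM per kb. With the fusion in fetal liver, Dhx58 led at 129 ± 29.8 CPM per kb, followed by Ddx58 at 59.0 ± 9.68. Eif2ak2 (42.1 ± 8.35), Samhd1 (36.8 ± 8.22), Zbp1 (34.0 ± 13.1), Adar (30.2 ± 2.48) and Ifih1 (26.3 ± 6.88) formed a run in which no neighbours differed beyond the larger SD. Mavs, at 15.4 ± 3.14, had moved from second place to eighth of 9, above Tlr3 at 1.39 ± 0.44.

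Ratios within a library set sensors, adaptor and brakes against each other. Ifih1 was at 0.426 ± 0.079 times the CPM of Adar, its RNA-editing brake, in WT fetal liver (SD, n = 3) and at 0.604 ± 0.016 in WT bone marrow. With the fusion it stood at 0.933 ± 0.086 in bone marrow and 0.890 ± 0.286 in fetal liver, where replicate 2 stood at 0.572 and replicate 3 at 1.13. Each fusion group lay above the WT group of its source. The ratio of Eif2ak2 to Adar went the other way in fetal liver, from 1.52 ± 0.29 to 0.889 ± 0.222, and overlapped in bone marrow (1.30 ± 0.25 and 1.20 ± 0.12). Ddx58 exceeded Ifih1 by 1.29 ± 0.15 times in WT and 1.98 ± 0.24 times in ETV6-RUNX1 fetal liver. Relative to Mavs, Ddx58 went from 0.587 ± 0.106 to 8.45 ± 2.94 in fetal liver and from 1.14 ± 0.31 to 5.30 ± 1.81 in bone marrow. These are ratios of CPM, not per length, and no test was run on them.

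**Figure D3:**
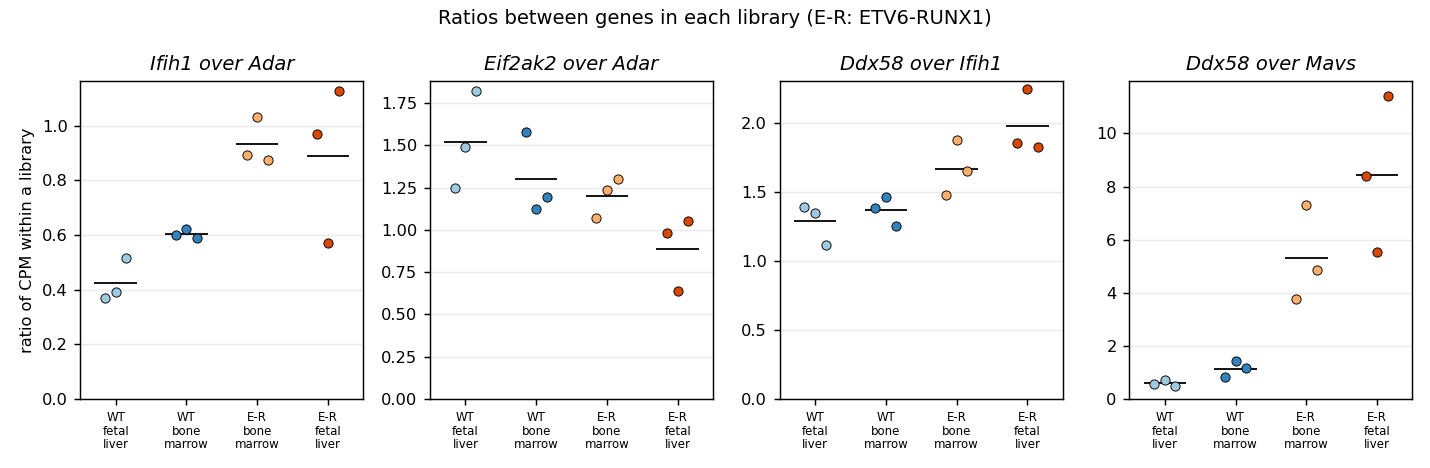
Ratio of the CPM of 2 genes within each library, by group, with lines at the group means and axes from 0. The ratio of Ddx58 to Mavs is at most 1.44 in WT libraries and at least 3.77 in ETV6-RUNX1 libraries, while the ratio of Eif2ak2 to Adar falls from 1.52 to 0.889 in fetal liver.

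The counts of the other lists of the pathway are read against the shares of all genes given above, 24.8% higher and 18.3% lower in fetal liver and 14.4% higher and 4.93% lower in bone marrow. Of 11 other sensors tested, 6 rose (54.5%) and 2 fell (18.2%, as in all genes) with the fusion in fetal liver, and 2 rose in bone marrow (18.2%), with list medians of 0.41 and 0.28. In bone marrow the call of Aim2 was lost in 5 of the fits that left out 1 library, every WT bone marrow library among them. Ddx60, a helicase linked to antiviral RNA sensing, rose from 5.81 ± 0.56 to 417 ± 90.1 CPM in fetal liver (5.92 ± 0.26, limma adjusted p = 1.67e-09) and from 25.3 ± 5.73 to 153 ± 55.6 CPM in bone marrow (2.5 ± 0.26). Tlr7, an endosomal receptor of single-stranded RNA, rose by 1.80 ± 0.21 in fetal liver, and Aim2, a sensor of cytosolic DNA, by 1.64 ± 0.16. Dhx9, an RNA helicase that unwinds structured transcripts, fell by 0.57 on the log2 scale (SE 0.14). Tlr8, Tlr9 and Nlrp3 were below the filter on low levels.

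Of the cofactors of the sensors, 4 of 7 rose in fetal liver (57.1%) and 1 fell (median 0.69). In bone marrow 1 of 7 rose (14.3%, about the share of all genes; median 0.34). Unc93b1, which carries TLR3 and TLR7 to endosomes, rose by 2.23 ± 0.18 in fetal liver (limma adjusted p = 3.43e-07) and 1.33 ± 0.18 in bone marrow. The ubiquitin ligases of RIG-I, Trim25 and Rnf135, rose by 1.21 ± 0.20 and 1.20 ± 0.19 in fetal liver. G3bp1, a stress granule protein, fell by 0.67 there (SE 0.13).

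Between the sensors and the interferon genes, 5 of 10 relay genes rose in fetal liver and 2 in bone marrow, none fell, and the list medians were 0.52 and 0.34. The second call in bone marrow, of Traf3, was lost without any WT bone marrow library or ETV6-RUNX1 bone marrow replicate 1 or 2. The largest change was in Irf7, the inducible interferon regulatory factor, at 19.3 ± 0.65 CPM in WT and 1489 ± 279 CPM in ETV6-RUNX1 fetal liver (6.18 ± 0.45, limma adjusted p = 1.20e-07), and at 68.0 ± 48.9 and 557 ± 267 CPM in bone marrow (3.13 ± 0.45). Tbk1, the kinase that activates these factors, rose by 0.91 ± 0.15 in fetal liver. The constitutive factor Irf3 (48.2 ± 4.22 and 56.7 ± 7.91 CPM in fetal liver) and Tmem173, which encodes the DNA pathway adaptor STING (43.5 ± 4.86 and 47.7 ± 1.99 CPM), did not pass in either source. Both were chosen after their values were seen.

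Ligands were scarce. Of 21 interferon genes, 7 had no read in any library, and Ifnb1, which encodes interferon beta, was the only one to pass the filter on low levels, through ETV6-RUNX1 fetal liver alone. It was at 2.5, 2.53 and 4.89 CPM in ETV6-RUNX1 fetal liver and at most 0.309 CPM in any other library, and was picked out after its values were seen. A gene that passes the filter through 1 group has to be higher there, so no test of Ifnb1 is given.

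Of 8 genes of the interferon receptors and their signalling, 6 rose in fetal liver (median 0.92) and 5 in bone marrow (median 0.92). The bone marrow count was 2 without ETV6-RUNX1 bone marrow replicate 1 or 2, 7 without replicate 3 and 2 without WT bone marrow replicates 1 and 2. Stat2 and Irf9, which encode transcription factors that act at the ISRE, rose by 4.10 ± 0.24 (limma adjusted p = 2.19e-08) and 2.31 ± 0.17 in fetal liver. In bone marrow these rises were 2.14 ± 0.24 and 1.04 ± 0.17. Isg15, a ubiquitin-like modifier, and Usp18, which damps signalling at the receptor, rose by 5.86 ± 0.44 and 4.72 ± 0.37 in fetal liver and by 2.71 ± 0.44 and 1.57 ± 0.37 in bone marrow, the last of which lost its call without ETV6-RUNX1 bone marrow replicate 2. Socs1, a feedback inhibitor of the receptor's kinases, passed the filter through ETV6-RUNX1 bone marrow alone, at 1.14 to 1.64 CPM against 0.292 to 0.476 CPM in WT bone marrow, and is given no test.

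Of 13 other brakes on self nucleic acids, 3 rose (23.1%, near the share of all genes) and 6 fell (46.2%) in fetal liver (median -0.20). With 1 library left out, 1 to 4 rose and 3 to 6 fell, the fewest of both without WT fetal liver replicate 2 or 3, and 3 fell without ETV6-RUNX1 fetal liver replicate 3 as well. In bone marrow 1 fell, Rnaseh2a (median of the list -0.06), a call lost under 16 of 24 alternatives, among them the omission of any library but ETV6-RUNX1 bone marrow replicate 3. Nlrx1, which encodes a mitochondrial protein that restrains MAVS signalling, had the largest fall in fetal liver, from 9.39 ± 3.5 to 3.89 ± 2.69 CPM (-1.21 ± 0.38, limma adjusted p = 0.0188). That call was lost without WT fetal liver replicate 1 or ETV6-RUNX1 fetal liver replicate 3. The subunits of RNase H2, which removes ribonucleotides from DNA and is mutated, like ADAR, SAMHD1, TREX1 and IFIH1, in Aicardi-Goutières syndrome, were among those that fell. Rnaseh2a went from 139 ± 6.03 to 63.7 ± 2.76 CPM in fetal liver (-1.11 ± 0.12, limma adjusted p = 9.90e-06) and Rnaseh2c from 91.5 ± 17.5 to 51.9 ± 6.53 CPM (-0.80 ± 0.16). Rnaseh2b changed by -0.56 ± 0.17, a call lost without WT fetal liver replicate 2 or 3 or ETV6-RUNX1 fetal liver replicate 2. Adarb1, which encodes a second RNA-editing enzyme, rose by 1.41 ± 0.30 from 5.01 ± 1.79 CPM.

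Among 7 genes that carry out the responses of ZBP1 and PKR, 3 rose and 1 fell in fetal liver (median 0.35), and 2 rose and 1 fell in bone marrow (median 0.35). None of the 3 bone marrow calls was left without ETV6-RUNX1 bone marrow replicate 1, or without WT bone marrow replicates 1 and 2, and those of Mlkl and Eif2s1 were lost under 11 and 13 of 24 alternatives. Casp8, whose protease restrains necroptosis, rose by 1.49 ± 0.13 in fetal liver (limma adjusted p = 1.10e-06), Mlkl, the pore former of necroptosis, by 1.29 ± 0.12, and Ppp1r15a, which directs dephosphorylation of eIF2alpha, by 1.36 ± 0.21. Eif2s1, which encodes eIF2alpha itself, fell by 0.72 (SE 0.14). Of 10 genes that silence or restrict retroelements, a source of self nucleic acids, 4 rose (40.0%) and 2 fell (20.0%, near the share of all genes) in fetal liver (median 0.15), and 2 rose (20.0%) in bone marrow (median 0.02). Of these 2, Mov10 lost its bone marrow call without WT bone marrow replicate 1 or ETV6-RUNX1 bone marrow replicate 1 or 3. Those that rose in fetal liver included the RNA helicase Mov10 (1.81 ± 0.18) and the cytidine deaminase Apobec3 (1.46 ± 0.12), while Trim28, a corepressor of retroelement transcription, fell by 0.47 (SE 0.13).

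**Figure D4:**
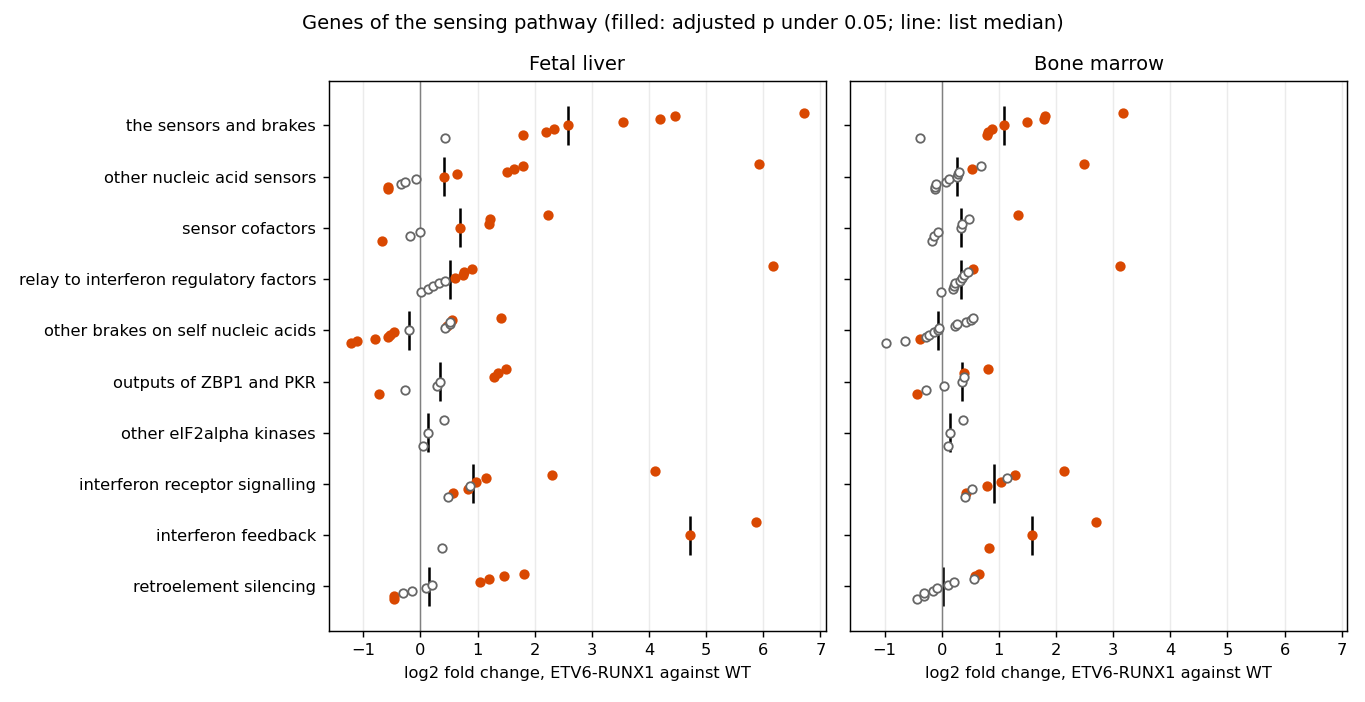
Log2 fold change of each tested gene of the sensing pathway with ETV6-RUNX1 in fetal liver (left) and bone marrow (right), one row per list. Filled points passed the test, and vertical lines are list medians. The 9 sensors and brakes have a median of 2.57 in fetal liver, against -0.20 for the 13 other brakes.

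For 8 of the 9 genes, the most similar profile over the 12 libraries was sought among the tested genes other than the 9. It was taken by the highest Pearson r of log2(CPM + 1), as a description. The libraries share their 4 groups, so group differences make up much of r. Ddx58 was nearest to Irgm2 (r = 0.994), Zbp1 to Il18bp (0.996) and Adar to Samd9l (0.983). Herc6 was the nearest of both Dhx58 (0.998) and Eif2ak2 (0.990), Aim2 of Samhd1 (0.992) and BC023105 of Tlr3 (0.987). Of these 8, Mavs had the lowest such value, 0.911, with Exoc3, whose means ran only from 52.2 to 65.9 CPM.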

How the data were processed

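The authors deposited 1 table of CPM per gene for total RNA libraries (stranded kit for small inputs, per the labels' protocols). The submitters' processing notes list bcl2fastq, STAR 2.5.1a, Subread, featureCounts 1.4.6-p5, Salmon 0.8.2, edgeR, limma and GRCm38, without their roles. Annotation, strand setting and treatment of overlapping genes are not given in the sources used here. The table has 40757 entries, of which 276 were repeats of an ID and were dropped. In every library 100% of values were whole multiples of 1 read (tolerance 0.001), which gave back read counts and library totals. The 3-read floor covers counting error only.

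Genes that reached 1 CPM in 3 or more of 12 libraries were tested as log2(CPM + 1) with limma 3.58.1 (R 4.3.3; trend, two-sided, 4 groups, no covariate), with Benjamini-Hochberg adjustment over 14271 genes and a threshold of 0.05. edgeR 4.0.16 on the recovered reads called 6178 genes in fetal liver and 2739 in bone marrow, against 6151 and 2763. Alternatives were a pseudocount of 0.1, no filter, a mean of at least 5 CPM, median-of-ratios and quantile scaling, a replicate block, array weights, edgeR, DESeq2 1.42.0, only the 6 libraries compared, and each library left out. The pseudogene share as a covariate and the omission of 2 WT bone marrow libraries were added after seeing the data. The fit was tested on simulated data for the fetal liver comparison only. There, balanced changes were put into ETV6-RUNX1 fetal liver alone, so the other comparisons and the choice of scaling were not covered.

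Named list genes were at most 4 per list, comparison and direction, the largest changes among genes that passed and averaged 5 CPM or more in either group. Lists of 5 or fewer are given whole, and others named are said to be. A gene that reached the filter in 1 group only is given no test. One gene of the interferon signalling list is not reported here. The genes and lists were chosen with earlier results of these data known. Positions and exon lengths come from GENCODE M21 (GRCm38, 99.44% of gene IDs matched).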

Additional observations from a re-analysis of the deposited data

Results flagged for a closer look

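The results below changed differently in the 2 sources, by the limma test of the difference between the fetal liver and bone marrow effects (fetal liver minus bone marrow, log2). Among the sensors and brakes these differences were 3.53 for Zbp1, 2.64 for Dhx58, 2.40 for Ddx58, 2.05 for Ifih1, 1.69 for Adar, 1.52 for Samhd1 and 1.01 for Eif2ak2, with adjusted p from 0.000763 to 0.0365.

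In the interferon pathway they were 3.16 for Isg15, 3.15 for Usp18, 3.05 for Irf7, 1.96 for Stat2 and 1.27 for Irf9. Among the other sensors they were 3.42 for Ddx60, 1.52 for Tlr7 and 1.12 for Aim2. The effector genes Casp8 (1.10) and Mlkl (0.90) and the retroelement restriction genes Mov10 (1.15) and Apobec3 (0.88) also rose more in fetal liver. The RNase H2 genes Rnaseh2c (-1.03) and Rnaseh2a (-0.73) had lower effects in fetal liver. Of the results so far, without WT bone marrow replicates 1 and 2 the calls of Zbp1, Eif2ak2, Irf7 and Isg15 were lost. With the pseudogene share as a covariate those of Adar, Ddx58, Ifih1, Eif2ak2, Stat2, Irf9, Tlr7, Mov10, Apobec3, Rnaseh2a and Rnaseh2c were lost, and Tlr7 lost its call with edgeR and DESeq2 too.

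The 2 cofactor results were the least stable. Unc93b1 (0.90) lost its call under 13 of 23 alternatives, 8 of them the omission of 1 library (any WT or ETV6-RUNX1 fetal liver library except ETV6-RUNX1 replicate 2, WT bone marrow replicate 2, or ETV6-RUNX1 bone marrow replicate 1 or 3). G3bp1 (-0.61) lost it under 16 of 23, among them the omission of any library except WT bone marrow replicates 1 and 3. Rnaseh2a lost it without WT fetal liver replicate 2 or 3 or WT bone marrow replicate 2, and with median-of-ratios scaling and edgeR.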

How the results depend on the processing

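All 8 rises of sensors and brakes in fetal liver kept their direction and passed under every alternative that gave a value. In bone marrow 4 of 8 passed without WT bone marrow replicates 1 and 2, which leaves 1 WT library that is assumed to vary like the others. When all genes with reads were tested, 6 of the 8 rises in bone marrow passed. For the difference between sources, 3 genes passed with the pseudogene share as a covariate and 5 with all genes with reads, against 7. For WT cells by source, 7 passed with array weights and 2 without both WT bone marrow libraries, against 4. For ETV6-RUNX1 cells by source, 8 passed with median-of-ratios scaling, 9 with array weights, 8 with DESeq2 and 2 with the pseudogene covariate, against 5.

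Over all genes, the bone marrow count of 2763 became 1601 with only 6 libraries, 566 without both WT bone marrow libraries, and 1520 to 2924 with 1 library left out (lowest without ETV6-RUNX1 bone marrow replicate 2). That of 1311 for the difference became 767 with all genes, 3637 with array weights, 547 with the pseudogene covariate, 812 without both WT bone marrow libraries, and 731 to 2332 with 1 library left out (WT bone marrow replicates 2 and 1). That of 1591 for WT cells by source became 4401 with array weights, 575 without both libraries, and 868 to 2781 with 1 library left out (again WT bone marrow replicates 2 and 1). The causes were not tested.

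Signs turned only among changes that did not pass. In fetal liver Eif2ak3 was -0.0174 with median-of-ratios scaling, -0.21 with quantile normalization, -0.015 with edgeR, -0.10 to 0.22 with 1 library left out (below 0 without WT replicate 3 or ETV6-RUNX1 replicate 1) and -0.17 with the pseudogene covariate, and with quantile normalization Eif2ak4 was -0.12 and Tmem173 -0.014. In bone marrow Eif2ak3 was -0.016, -0.20, -0.043, -0.032 and -0.20 with median-of-ratios, quantile, edgeR, DESeq2 and both WT libraries left out, and Eif2ak4 was -0.0945 with quantile normalization and -0.0948 with those libraries left out. Mavs between the ETV6-RUNX1 sources was -0.034 with the pseudogene covariate.

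Same-numbered libraries were not treated as pairs in the main test. Their deviations from group means correlated at -0.44 to 0.39, over 0.1 in 7 of 18 pairs, against 14 of 36 pairs with different numbers. Deviations of so few libraries per group are tied to each other, so this check cannot exclude a shared litter or day. With the replicate block 8, 8, 6, 4 and 5 genes passed in the 5 comparisons, Eif2ak2 being lost for the difference (adjusted p = 0.0579). Genes under 5 CPM, such as Tlr3, gave no value under the mean filter, DESeq2 values without an adjusted p were left out, and the fit of 6 libraries was not run for the difference. At these totals, depth limits the values of Zbp1 in WT fetal liver (4 to 8 reads) and of Ifnb1 outside ETV6-RUNX1 fetal liver.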
